A study of Homo sapiens with 24 samples.

Results

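The complement genes examined here were 9 of the 39321 genes in the count table: C3, C1R, C1S, C4A, C4B, CFB, CFI, SERPING1 and CD55. They were chosen by name, each through its Ensembl identifier. In GRCh38 (GENCODE 44) C4A (chr6:31982057-32002681), C4B (chr6:32014795-32035418) and CFB (chr6:31945650-31952086) lie together on chromosome 6, and C1R (chr12:7080214-7092540) and C1S (chr12:6988259-7071032) are neighbours on chromosome 12 in opposite orientation. C3 lies at chr19:6677704-6730562, CFI at chr4:109731008-109802150, SERPING1 at chr11:57597387-57619171 and CD55 at chr1:207321519-207386804. RNA was measured in 24 libraries of A498 and 786-O, established human lines of clear cell renal cell carcinoma, with 12 libraries per line and 3 in each of 4 groups. Cnsi cells received a scrambled control siRNA, and PD-L1si cells a siRNA pool against PD-L1, the immune checkpoint ligand encoded by CD274, at 20 nM each. The Cnsi IFNγ and PD-L1si IFNγ groups were then given interferon gamma (IFNγ), a cytokine of activated T cells and natural killer cells, at 50 ng/mL for 24 hours. The labels call the PD-L1si genotype a knockout, whereas the protocol is transient silencing, in which some PD-L1 RNA remains. The labels do not say whether replicates were separate cultures, so the p-values measure the spread between these libraries, which may be technical.

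Complement is a cascade of proteases and binding proteins that tags and lyses targets. In the classical pathway C1r and C1s are the paired serine proteases of the C1 complex: C1r activates C1s, which cuts C4 and C2. In the alternative pathway factor B (CFB) forms with C3 a convertase that amplifies the cleavage of C3, at which all routes meet. Cells restrain the cascade with C1 inhibitor (SERPING1), which blocks C1r and C1s, with factor I (CFI), a protease that inactivates C3b and C4b, and with CD55, a membrane protein that speeds the decay of convertases. The liver makes most plasma complement, while kidney epithelium and renal carcinoma cells are known to produce components locally. IFNγ is a known inducer of several of these genes.

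Library totals ran from 19256316 to 27907526 counts in A498-labelled libraries and from 26807875 to 30350461 in 786-O-labelled libraries. In the check of the siRNA, CD274 fell by 2.81 on the log2 scale under IFNγ and by 2.47 without it in A498-labelled libraries, and by 0.94 and 1.42 in 786-O-labelled libraries. The publication's figures carry the names of the lines the other way round, so each library is called by its label, and each line was read on a different instrument, so that line and instrument cannot be told apart. All 10 renal markers had counts in A498-labelled libraries, and in 786-O-labelled libraries NDUFA4L2 stayed under 1 CPM, while PAX2 was listed at 0 and may not have been measured there. CPM is the count per 1000000 of the scaled library size, except for the markers of this paragraph, where the library total was not scaled. The 5 leukocyte markers with an entry in the table, PTPRC among them, summed to 0.192 to 0.58 CPM and 1.12 to 2.54 CPM in the lines. The summed hepatocyte markers were lower with IFNγ in A498-labelled libraries, from 7.13 to 7.94 CPM in Cnsi cells to 0.215 to 0.345 CPM in Cnsi IFNγ cells, with ALB and APOA1 under 1 CPM in all of them. They stood at 12.4 to 13.6 CPM in PD-L1si cells and at 0.431 to 0.571 CPM in PD-L1si IFNγ cells. The 4 fibroblast markers summed to 2.34 to 2.96 CPM in Cnsi and 1.01 to 1.15 CPM in Cnsi IFNγ cells labelled A498, and the 3 endothelial markers to 0.112 to 0.231 CPM and 0.596 to 0.799 CPM in those labelled 786-O (0.999 to 1.15 CPM in PD-L1si IFNγ cells). The part of these markers in the results was not tested. CD55 was at 0 in all 12 libraries labelled 786-O. It was 1 of 1475 genes at 0 there with over 1000 counts in all in A498-labelled libraries, and only 1.29% of these carried the identifier version of GENCODE 44 against 70.9% of the other 10971 genes at that level. CD55 was therefore taken as not measured in 786-O-labelled libraries, and 8 genes were followed there.

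C4A and C4B are neighbouring copies of one gene in the HLA region of chromosome 6, and the few bases that tell their reads apart decide how far their counts can be separated. Their GENCODE 44 transcripts of 5427 bases differed at 13 bases, and 11.6% of the 100-base stretches of C4A were absent from C4B. The stretch of exon 26 where 5 differences lie together is shown for both genes, in GRCh38 and on the plus strand, at chr6:31996077-31996106 for C4A and chr6:32028815-32028844 for C4B, with the differing bases in capitals.
C4A: aggaccCctGtccagtgTtaGaCaggagca
C4B: aggaccTctCtccagtgAtaCaTaggagca

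Promoter windows of 250 bases before the gene start (RefSeq, GRCh38.p14) were matched for 4 of the 9 genes, with 2 windows for C1R. The letters searched on both strands were the GAS (gamma-activated sequence) motif (TTCNNNGAA), the ISRE of the interferon-responsive factors (a pair of GAAA blocks with any 2 bases between them) and the kappaB consensus of NFκB, which 6.57%, 3.02% and 9.96% of 35116 windows of this length held. CFB (chr6:31945845-31946094, plus strand) and the second window of C1R (chr12:7091894-7092143, minus strand) are shown because they held matches, in capitals. CFI (chr4:109802000-109802249, minus strand) is shown as a window that held none, from a gene that moved opposite to theirs in A498-labelled libraries.
CFB: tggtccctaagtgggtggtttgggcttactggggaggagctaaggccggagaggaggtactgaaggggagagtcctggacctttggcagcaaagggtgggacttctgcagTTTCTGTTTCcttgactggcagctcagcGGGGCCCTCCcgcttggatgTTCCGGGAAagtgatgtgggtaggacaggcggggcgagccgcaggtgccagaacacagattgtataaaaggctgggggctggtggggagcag
C1R: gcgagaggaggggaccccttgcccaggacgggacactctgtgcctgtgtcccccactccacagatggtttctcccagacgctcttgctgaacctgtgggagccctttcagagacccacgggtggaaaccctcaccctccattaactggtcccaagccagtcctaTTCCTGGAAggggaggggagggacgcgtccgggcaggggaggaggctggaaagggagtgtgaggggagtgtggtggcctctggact
CFI: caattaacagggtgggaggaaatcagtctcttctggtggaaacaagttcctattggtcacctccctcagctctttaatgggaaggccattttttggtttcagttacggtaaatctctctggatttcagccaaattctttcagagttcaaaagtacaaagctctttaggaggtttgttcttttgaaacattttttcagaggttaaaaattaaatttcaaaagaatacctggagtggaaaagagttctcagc

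The CFB window held a GAS match (TTCCGGGAA) at positions -92 to -84 from that transcript start, an ISRE match on the other strand (TTTCTGTTTC) and a kappaB match (GGGGCCCTCC). Their order along the gene's strand was ISRE, kappaB, GAS, without overlap. The C1R window held a GAS match (TTCCTGGAA) at positions -86 to -78. The first C1R window and those of CFI and CD55 held none of the 3 motifs. Of these genes without a match, CFI fell with IFNγ in Cnsi cells labelled A498 (log2 fold change -1.27) and CD55 rose (0.74). Whether the motifs bear on the responses was not tested. These are matches of letters in short windows and not measured binding.

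Per kilobase of exon, C3 had the highest level of the 9 genes in each group labelled A498, and C1S the highest in each group labelled 786-O. In Cnsi cells labelled A498, C3 stood at 55.2 ± 2.0 CPM per kb (SD, n = 3), followed by CFI at 4.06 ± 0.13 and C1S at 4.03 ± 0.15, which did not differ beyond their spread, and then by CD55 at 3.17 and C1R at 1.66. CFB, C4A, C4B and SERPING1 were all under 1 CPM per kb there. With IFNγ the order in Cnsi cells labelled A498 became C3 (219), C1S (124), C1R (66.7), SERPING1 (6.68) and CD55 (5.29), followed by CFB at 3.79 ± 0.28 and C4A at 3.59 ± 0.13, which did not differ beyond their spread, and by C4B at 1.69 ± 0.13 and CFI at 1.67 ± 0.20, which did not either. SERPING1 thus passed from the lowest level to above CD55, and CFI from a level shared with C1S below C3 to one shared with C4B at the bottom.

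In Cnsi cells labelled 786-O the order of levels was C1S at 69.7 CPM per kb, C1R at 24.1, C3 at 18.0, CFI at 6.86, C4B at 2.42, SERPING1 at 0.651, CFB at 0.261 and C4A at 0.0825. With IFNγ, C1S reached 160 CPM per kb, while C3 at 89.6 ± 9.3 and C1R at 89.5 ± 7.4 did not differ beyond their spread, nor did SERPING1 at 11.9 ± 0.72 and C4B at 10.9 ± 0.94. CFI, CFB and C4A were lowest, at 5.56, 1.01 and 0.302 CPM per kb. Reads shared with overlapping genes can be missing from a gene's count. In GENCODE 44, a later release than that of the counts, 42.8% of the exon bases of CFB lie in C2 or a transcript reading through both. The read-through has no row in the count table, and the share of C2 alone was not computed. The shared part was 11.7% for C3 and 11.6% for C1R, while 29.4% of the exon bases of CFI lie in a gene with no row in the count table. The order between genes is therefore approximate.

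**Figure D1:**
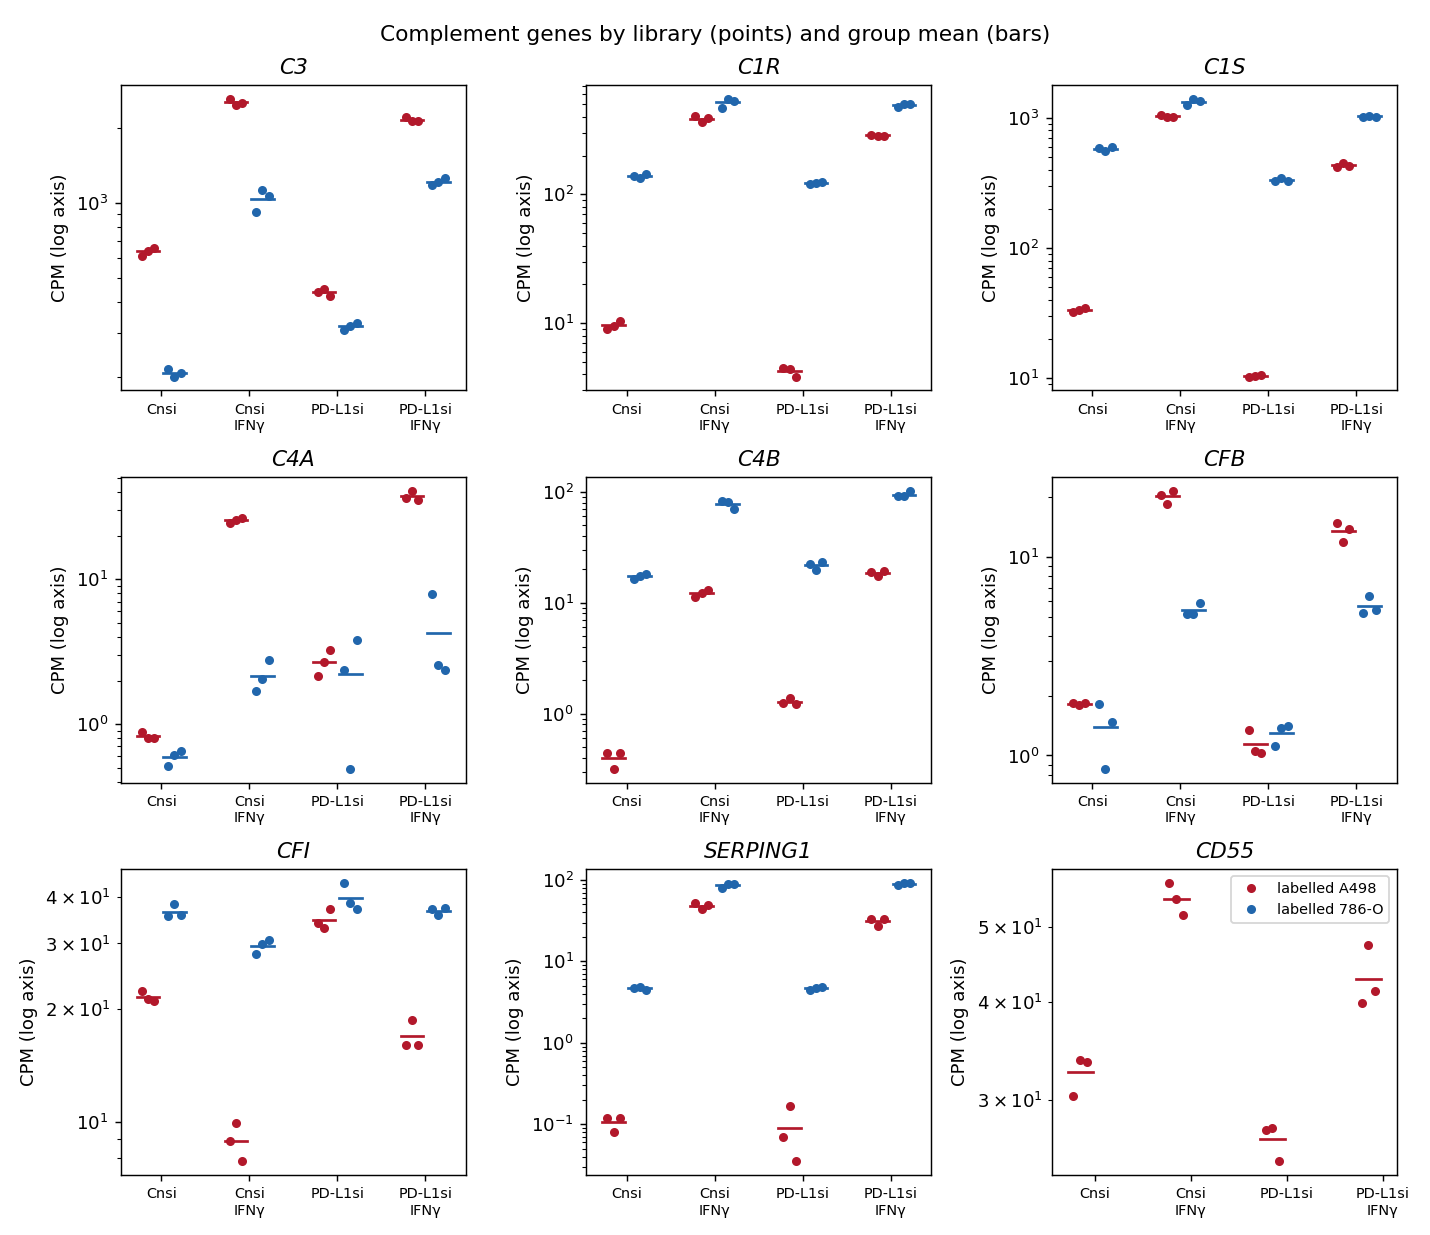
Levels of the 9 complement genes in CPM on a log axis, with 1 point per library and a bar at the mean of each group of 3, by siRNA and IFNγ, red for libraries labelled A498 and blue for those labelled 786-O. In red, the points of Cnsi IFNγ lie above those of Cnsi for each gene but CFI, whose points lie below; CD55 has no blue points because it was not measured there.

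To determine what IFNγ did to complement transcripts without PD-L1 silencing, Cnsi IFNγ was compared with Cnsi cells. In A498-labelled libraries all 9 genes changed: 8 rose (18.2% of 20916 genes tested were called higher), of which SERPING1 passed the filter on low counts only through its IFNγ groups, and CFI fell (18.5% were called lower). In 786-O-labelled libraries, 6 of 8 rose (11.1% of 21209 genes tested), and C4A and CFI did not pass the threshold, which was an adjusted p under 0.05 in edgeR's quasi-likelihood test with a log2 fold change over 0.5 in size. The median log2 fold change of the members was 4.91 in A498-labelled libraries beside -0.03 over all genes tested, and 1.92 beside 0 in 786-O-labelled libraries. In bulk RNA, more cells carrying a transcript and more RNA per cell cannot be told apart.

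C3, the central component, rose in both lines. Its Cnsi libraries labelled A498 were at 614, 641 and 661 CPM and its Cnsi IFNγ libraries at 2610, 2462 and 2522 CPM. The groups were far apart, with a log2 fold change of 1.99 ± 0.04, which is 3.96-fold (edgeR adjusted p = 4.81e-31). The ± of a log2 fold change is here an approximate standard error, its size over the square root of the test's F statistic. It is not a fitted standard error and can understate the error of large effects where a group holds few counts. In 786-O-labelled libraries, C3 was at 215, 201 and 208 CPM in Cnsi cells and at 919, 1128 and 1064 CPM with IFNγ. These groups did not overlap either, and the rise was 4.98-fold (log2 fold change 2.32 ± 0.06).

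The transcripts of the proteases C1r and C1s rose far more in A498-labelled libraries than in those of the other label. C1R went from 8.97, 9.5 and 10.4 CPM in Cnsi cells to 405, 363 and 393 CPM with IFNγ, a 40.2-fold rise (log2 fold change 5.33 ± 0.06). C1S went from 32.1, 33.5 and 34.6 CPM to 1052, 1010 and 1012 CPM, or 30.7-fold (4.94 ± 0.05). Both genes were low in each untreated library and high in each treated one. In 786-O-labelled libraries the untreated levels were higher and the rise smaller: C1R went from 139, 135 and 145 CPM to 471, 552 and 536 CPM, or 3.72-fold (1.90 ± 0.05). C1S went from 584, 557 and 593 CPM to 1246, 1400 and 1347 CPM, or 2.30-fold (1.20 ± 0.05). The groups did not overlap for either protease, and the IFNγ-treated levels of the lines lay closer together than the untreated ones.

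The C4 genes, whose product is the substrate of C1s, rose in parallel with each other in A498-labelled libraries. C4A held 22, 20 and 20 counts in Cnsi cells and 589, 667 and 553 with IFNγ (log2 fold change 4.96 ± 0.13), and C4B 11, 8 and 11 against 266, 318 and 270 (4.91 ± 0.16). Each treated library was above each untreated one for both copies. In 786-O-labelled libraries, C4B rose from 511, 490 and 531 counts to 2309, 2205 and 1789, or 4.51-fold (2.17 ± 0.07). C4A held 16, 17 and 19 counts in Cnsi cells and 47, 55 and 70 with IFNγ there, groups that did not overlap. Its log2 fold change of 1.86 ± 0.92 did not pass the edgeR test (adjusted p = 0.155), but was called by DESeq2 (1.86, adjusted p = 0.0293). The edgeR dispersion of a gene is shared by the 4 groups of a line, and C4A varied widely in the PD-L1si groups of this label. The part of that spread in the missed call was not tested. With the counts of both copies summed, an alternative chosen after seeing the data, the rise was 4.95 ± 0.10 in A498-labelled libraries and 2.17 ± 0.09 in 786-O-labelled libraries.

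CFB, the protease subunit of the alternative pathway convertase, was at 1.83, 1.79 and 1.83 CPM in Cnsi cells labelled A498 and at 20.5, 18.5 and 21.4 CPM with IFNγ, an 11.0-fold rise (log2 fold change 3.46 ± 0.11). In 786-O-labelled libraries it was at 1.82, 0.858 and 1.47 CPM and rose to 5.12, 5.18 and 5.87 CPM (1.94 ± 0.17). The untreated values there varied more among themselves than the treated ones, and the groups were still apart. C2, the classical pathway counterpart of CFB whose exons overlap it, rose by 3.51 ± 0.13 in A498-labelled libraries and by 0.53 ± 0.18 in 786-O-labelled libraries.

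Among the inhibitors, SERPING1 went from near absence to a clear level in A498-labelled libraries. It held 3, 2 and 3 counts in Cnsi cells and 1238, 1141 and 1013 counts with IFNγ. From the 8 and 3392 counts in all, the ratio per library total was 411 (exact 95% interval 209 to 953.8, counting error only), and the fitted log2 fold change of 8.76 depends on the few untreated counts. In 786-O-labelled libraries, SERPING1 was at 4.73, 4.90 and 4.49 CPM and rose to 79.7, 88.9 and 88.6 CPM, or 18.2-fold (4.19 ± 0.07). It had the steepest rise of the members in each line.

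CFI and CD55 moved less. CFI was at 22.4, 21.4 and 21.1 CPM in Cnsi cells labelled A498 and at 8.89, 9.93 and 7.84 CPM with IFNγ, so that each treated library was below each untreated one (log2 fold change -1.27 ± 0.08). In 786-O-labelled libraries, CFI was at 35.5, 38.2 and 35.7 CPM and at 28.2, 29.8 and 30.7 CPM with IFNγ. The groups were apart, with a log2 fold change of -0.30 ± 0.06 (adjusted p = 0.00033) that is under the size required. CD55 was at 30.3, 33.8 and 33.6 CPM in Cnsi cells labelled A498 and rose to 56.8, 54.2 and 51.7 CPM with IFNγ (0.74 ± 0.06).

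**Figure D2:**
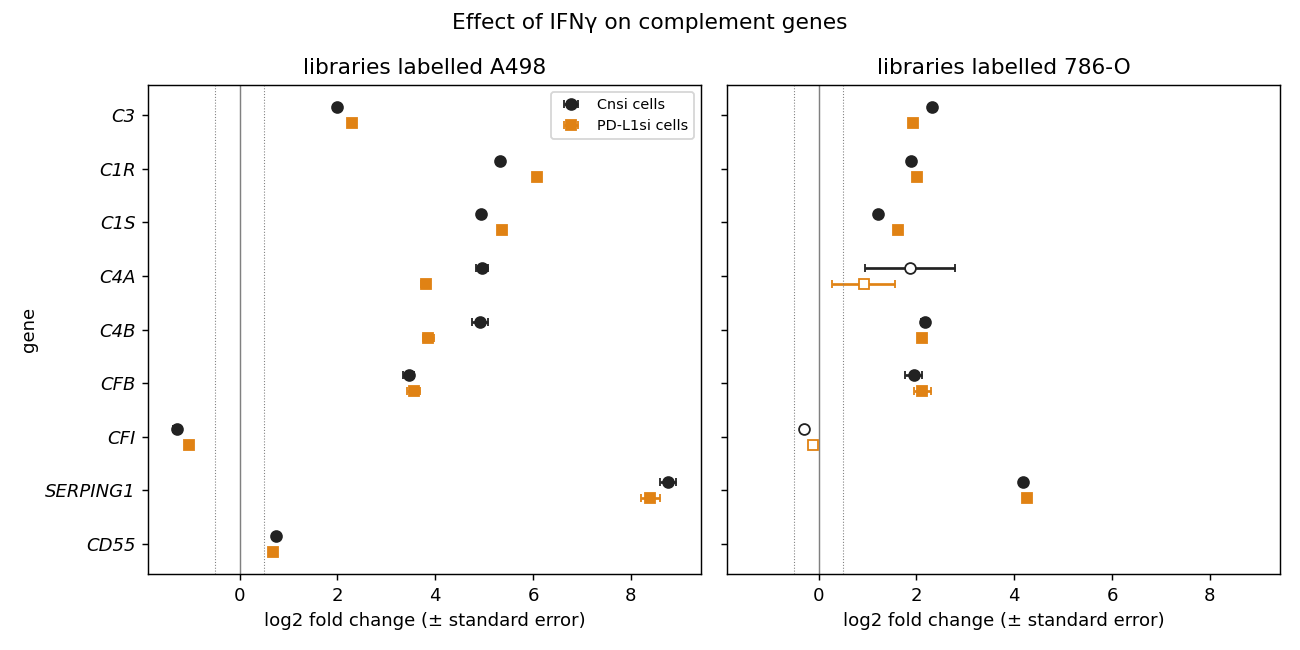
Log2 fold change with IFNγ of each complement gene, with its approximate standard error from the F statistic, in Cnsi cells (black circles) and PD-L1si cells (orange squares). Libraries labelled A498 are on the left and those labelled 786-O on the right. Filled symbols passed the threshold and dotted lines mark a log2 fold change of 0.5 in size. SERPING1 lies farthest right in both panels, at 8.76 and 4.19 in Cnsi cells, and CFI is the gene left of 0.

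To ask whether the response held with PD-L1 siRNA, PD-L1si IFNγ was compared with PD-L1si cells. IFNγ still raised CD274 in these cells. It stood at 27.7 CPM in PD-L1si IFNγ cells labelled A498 and 31.4 CPM in those labelled 786-O, above the 5.07 and 4.08 CPM of untreated Cnsi cells. The comparison is thus one with PD-L1 RNA lowered and not absent. In A498-labelled libraries, 8 genes rose (17.6% of genes tested were called higher) and CFI fell (15.9% lower), and in 786-O-labelled libraries 6 of 8 rose (11.0%). The members' median log2 fold changes were 3.80 and 1.97, beside -0.02 and 0 over all genes tested. C3 reached 2207, 2127 and 2136 CPM in PD-L1si IFNγ cells labelled A498 and 1175, 1209 and 1252 CPM in those labelled 786-O, in each case well above the PD-L1si libraries. C3 rose by 2.30 ± 0.04 in A498-labelled libraries and by 1.92 ± 0.06 in 786-O-labelled libraries, C1R by 6.07 ± 0.07 and 2.02 ± 0.05, and C1S by 5.37 ± 0.05 and 1.62 ± 0.05. SERPING1 went from 2, 4 and 1 counts to 755, 521 and 681 in A498-labelled libraries, a ratio per library total of 325 (exact 95% interval 157 to 808.2). Its fitted log2 fold change there was 8.40, and ran from 8.02 to 9.06 without 1 library each, the highest without the second PD-L1si library. It rose by 4.26 ± 0.07 in 786-O-labelled libraries.

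C4A and C4B rose by 3.80 ± 0.09 and 3.86 ± 0.12 in PD-L1si cells labelled A498. In 786-O-labelled libraries C4B rose by 2.11 ± 0.07. C4A was erratic in the PD-L1si cells labelled 786-O, with 68, 15 and 117 counts, and 206, 74 and 66 counts with IFNγ, groups that overlapped (log2 fold change 0.92 ± 0.65, adjusted p = 0.313). This value was 0.15 without the first PD-L1si IFNγ library and 1.58 without the third PD-L1si library. CFB rose by 3.56 ± 0.13 and 2.12 ± 0.17 in the lines, and CD55 by 0.68 ± 0.06 in A498-labelled libraries. CFI fell by 1.04 ± 0.07 in A498-labelled libraries, while its values in 786-O-labelled libraries overlapped between groups (-0.11 ± 0.06, adjusted p = 0.154).

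Next, PD-L1si cells were compared with Cnsi cells in the absence of IFNγ. In A498-labelled libraries, 4 members were lower (C3, C1R, C1S and CFB; 5.60% of genes tested were called lower) and 3 were higher (C4A, C4B and CFI; 2.87% were called higher), with a median log2 fold change of -0.29 beside 0 over all genes. In 786-O-labelled libraries, C3 was higher (1.19% of genes) and C1S lower (1.63%), with a median of 0.05 beside 0. These comparisons use the same Cnsi libraries as those of IFNγ in Cnsi cells.

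C1S was lower with PD-L1si in both lines. In A498-labelled libraries it went from 32.1, 33.5 and 34.6 CPM in Cnsi cells to 10.3, 10.4 and 10.7 CPM in PD-L1si cells, a 3.19-fold lower level (log2 fold change -1.67 ± 0.06, adjusted p = 4.21e-22). In 786-O-labelled libraries it went from 584, 557 and 593 CPM to 328, 348 and 327 CPM (-0.79 ± 0.05, adjusted p = 1.79e-11). In each line all silenced libraries were below all controls. C1R was lower too in A498-labelled libraries, with 4.51, 4.42 and 3.85 CPM in PD-L1si cells (-1.18 ± 0.09), and was -0.19 ± 0.05 in 786-O-labelled libraries, under the size required.

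C3 moved in opposite directions in the lines. It went from 614, 641 and 661 CPM to 439, 451 and 424 CPM in A498-labelled libraries (log2 fold change -0.54 ± 0.04), and from 215, 201 and 208 CPM to 309, 321 and 330 CPM in 786-O-labelled libraries (0.62 ± 0.06). The silenced and control libraries did not overlap in either line.

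C4A rose from 22, 20 and 20 counts in Cnsi cells labelled A498 to 61, 64 and 91 in PD-L1si cells (1.70 ± 0.20), and C4B from 11, 8 and 11 to 35, 33 and 34 (1.66 ± 0.26). Both copies were at low counts, yet each silenced library was above each control. In 786-O-labelled libraries, C4B was at 16.3, 17.5 and 18.2 CPM in Cnsi cells and at 22.5, 19.7 and 23.4 CPM in PD-L1si cells (0.34 ± 0.08), under the size required, and C4A overlapped between groups (1.91 ± 0.90, adjusted p = 0.242). CFI rose from 22.4, 21.4 and 21.1 CPM to 34.1, 33 and 37.1 CPM in A498-labelled libraries (0.69 ± 0.07). CFB went from 46, 45 and 46 counts to 38, 25 and 29 there (-0.66 ± 0.20, adjusted p = 0.00834), a call lost without the third PD-L1si library (-0.57, adjusted p = 0.0525). SERPING1 (-0.27 ± 0.76, at 1 to 4 counts a library) and CD55 (-0.29 ± 0.06) were not called, nor were CFB (-0.10 ± 0.22), CFI (0.12 ± 0.06) and SERPING1 (-0.01 ± 0.09) in 786-O-labelled libraries.

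Under IFNγ, PD-L1si cells labelled A498 had lower C1S, SERPING1 and CFB (5.75% of genes tested were called lower) and higher CFI, C4A and C4B (4.36% were called higher) than Cnsi cells. The other genes, C3, C1R and CD55, had adjusted p-values under 0.05 and changes of -0.23 ± 0.04, -0.43 ± 0.04 and -0.34 ± 0.06, under the size required, and the median over the 9 was -0.34 beside 0.01 over all genes. For 786-O-labelled libraries 0 of 8 were called by edgeR or by DESeq2, with 4 at an unadjusted p under 0.05 (1.29% and 1.74% of genes were called higher and lower), with a median of 0.15 beside 0.01. Of these 8, 4 had an adjusted p under 0.05: C1S at -0.38 ± 0.05, C3 at 0.23 ± 0.06, C4B at 0.27 ± 0.07 and CFI at 0.31 ± 0.06. The others were C1R at -0.07 ± 0.05, C4A at 0.98 ± 0.66, CFB at 0.07 ± 0.14 and SERPING1 at 0.06 ± 0.05. These comparisons share the Cnsi IFNγ libraries with those of IFNγ in Cnsi cells.

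C1S had the largest change of the members called. With IFNγ its Cnsi libraries labelled A498 were at 1052, 1010 and 1012 CPM and its PD-L1si libraries at 417, 449 and 430 CPM (log2 fold change -1.25 ± 0.04, adjusted p = 3.89e-23). The silenced libraries lay well below the controls and well above the untreated cells. SERPING1 went from 51.9, 44.2 and 48.7 CPM to 32.9, 27.5 and 33 CPM (-0.63 ± 0.07), and CFB from 20.5, 18.5 and 21.4 CPM to 14.8, 11.9 and 13.7 CPM (-0.57 ± 0.08). The groups were apart for each of these genes. CFI went from 8.89, 9.93 and 7.84 CPM to 16.1, 18.7 and 16.0 CPM (0.92 ± 0.09). C4A (0.55 ± 0.07) and C4B (0.61 ± 0.08) were a little higher. Without the second PD-L1si IFNγ library, C4A and CFB were at 0.49 and -0.49, just under the size required.

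**Figure D3:**
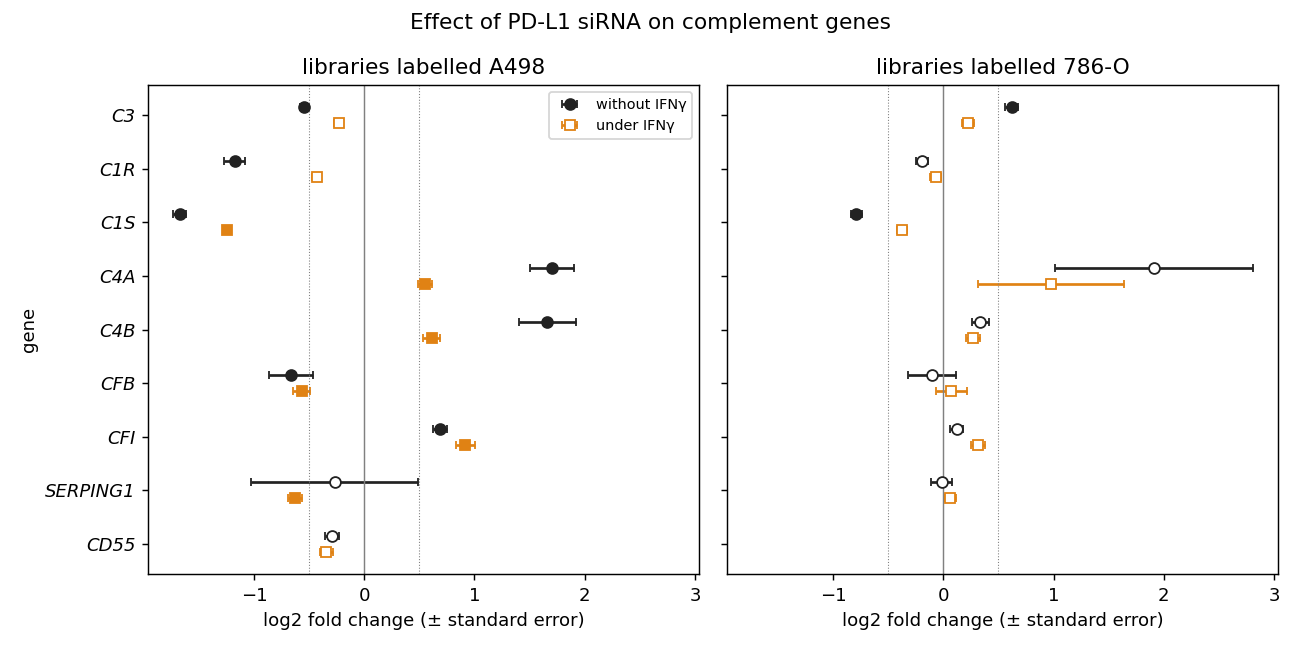
Log2 fold change of PD-L1si against Cnsi cells for each complement gene, with its approximate standard error from the F statistic, without IFNγ (black circles) and under IFNγ (orange squares). Libraries labelled A498 are on the left and those labelled 786-O on the right. Filled symbols passed the threshold and dotted lines mark 0.5 in size. C1S lies left of 0 in both panels, C3 lies left in one panel and right in the other, and the wide bars belong to C4A (labelled 786-O) and SERPING1 (labelled A498).

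The interaction asks whether the log2 response to IFNγ differed between PD-L1si and Cnsi cells. In A498-labelled libraries it was positive for C1R (0.74 ± 0.10, adjusted p = 3.45e-06; 1.81% of genes were called positive) and negative for C4A (-1.15 ± 0.21, adjusted p = 0.000247) and C4B (-1.05 ± 0.28, adjusted p = 0.0107; 0.645% were called negative). The C4B call was lost without the second Cnsi library (-0.91, adjusted p = 0.0708). C3 (0.31 ± 0.06) and C1S (0.43 ± 0.07) had adjusted p-values under 0.05 and were under the size required, and CFB, CFI, SERPING1 and CD55 did not pass the test. The members' median was 0.10 beside 0.04 over all genes. In 786-O-labelled libraries 0 of 8 members were called by edgeR or DESeq2, with 3 at an unadjusted p under 0.05 (0.0377% and 0.0613% of genes were called positive and negative), with C1S at 0.41 ± 0.07 (adjusted p = 0.00532) and C3 at -0.40 ± 0.08 (adjusted p = 0.0353). C1R (0.12 ± 0.07), C4A (-0.94 ± 1.15), C4B (-0.07 ± 0.10), CFB (0.18 ± 0.26), CFI (0.19 ± 0.09) and SERPING1 (0.07 ± 0.11) did not pass the test.

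The effects were compared between lines in one model of the 17999 genes tested in both, as labelled 786-O minus labelled A498. The IFNγ effect in Cnsi cells differed for 7 of 8 members, all but C3 (15.1% of genes were called higher and 13.2% lower). It was smaller in 786-O-labelled libraries for C1R (-3.44 ± 0.08), C1S (-3.74 ± 0.07), C4B (-2.75 ± 0.22), CFB (-1.53 ± 0.23), SERPING1 (-4.59 ± 0.30) and C4A (-3.11 ± 1.05). The size for SERPING1 rests on 8 counts in all in the Cnsi libraries labelled A498, where it passed the filter only through its IFNγ groups. Its ± can therefore understate the error. For CFI the fall was smaller there (0.96 ± 0.11). For C3 the difference was 0.32 ± 0.07 (adjusted p = 0.000252), under the size required. The C4A difference lost its call without the second or the third Cnsi library labelled 786-O (adjusted p = 0.0564 and 0.0676).

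The IFNγ effect in PD-L1si cells differed for 7 of 8 members, again all but C3 (13.1% of genes were called higher and 12.8% lower). For C3 the difference was -0.38 ± 0.07 (edgeR adjusted p = 2.59e-05), under the size required and opposite in sign to that in Cnsi cells. The effect of PD-L1si without IFNγ differed between lines for 5 of 8 members (3.23% of genes were called higher and 1.25% lower), among them C3 (1.17 ± 0.07, adjusted p = 2.14e-15), where the directions were opposite, and C1S (0.89 ± 0.08), where the fall was larger in A498-labelled libraries. Under IFNγ it differed for C1S, CFB, CFI and SERPING1 (2.96% of genes were called higher and 2.64% lower). C3 (0.47 ± 0.07), C1R (0.37 ± 0.07) and C4B (-0.33 ± 0.10) had adjusted p-values under 0.05 there and were under the size required. The interaction of siRNA and IFNγ itself differed between lines for C3 (-0.70 ± 0.10) and C1R (-0.62 ± 0.13; 0.411% of genes were called higher and 1.13% lower).

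Ratios of counts within a library do not depend on its depth and were compared for the paired proteases and for the C4 copies. They are not corrected for exon length, which differs between C1S and C1R. The counts of C1S were 3.48 ± 0.12 times those of C1R (SD, n = 3) in Cnsi cells labelled A498 and 2.65 ± 0.12 times with IFNγ. They were 2.47 ± 0.27 times those of C1R in PD-L1si cells and 1.51 ± 0.067 times in PD-L1si IFNγ cells. Per kilobase of exon, C1S and C1R were at 52.1 ± 2.0 and 49.4 ± 0.38 CPM in the PD-L1si IFNγ cells. In 786-O-labelled libraries the count ratios were 4.14 ± 0.063, 2.57 ± 0.071, 2.73 ± 0.12 and 2.07 ± 0.058, in the same order of groups. The Cnsi libraries had the highest ratios and the PD-L1si IFNγ libraries the lowest in both lines, without overlap with the other groups, whereas the Cnsi IFNγ and PD-L1si groups overlapped in each line. With 3 libraries a group no permutation test of one ratio can give a p under 0.1, and none was run.

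C4A over C4B was steady across groups labelled A498, at 2.11 ± 0.35 in Cnsi and 2.12 ± 0.085 in Cnsi IFNγ cells, and at 2.12 ± 0.49 in PD-L1si and 2.05 ± 0.27 in PD-L1si IFNγ cells. In 786-O-labelled libraries the same ratio ran from 0.0204 to 0.164 over the 12 libraries, so that C4B held most of the reads. The copies thus stood in opposite order in the lines.

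**Figure D4:**
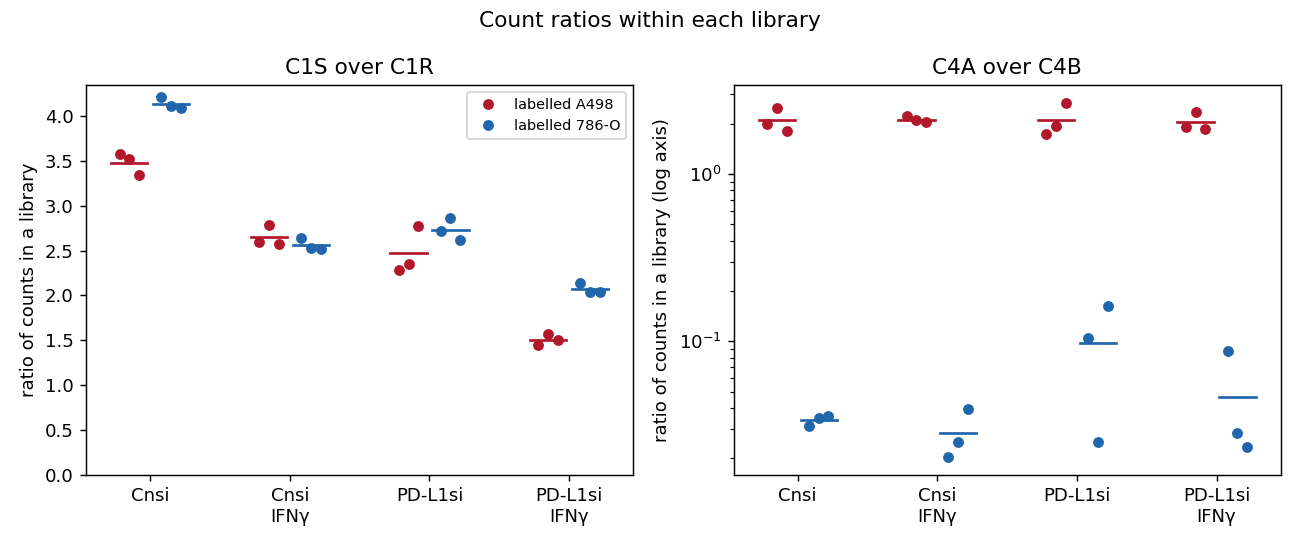
Ratio of counts within each library, C1S over C1R on a linear axis (left) and C4A over C4B on a log axis (right), with 1 point per library and a bar at the mean of each group of 3, red for libraries labelled A498 and blue for those labelled 786-O. C1S over C1R is highest in Cnsi and lowest in PD-L1si IFNγ cells in both colours; C4A over C4B lies near 2.1 in red and between 0.0204 and 0.164 in blue.

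The rest of the pathway was read from a list of 50 other complement genes, of which 21 were tested in A498-labelled libraries and 23 in 786-O-labelled libraries. With IFNγ in Cnsi cells labelled A498, 3 of 21 rose and 5 fell, beside 18.2% and 18.5% of all genes tested, with a median log2 fold change of 0.10 beside -0.03. The genes that rose were C2 (3.51 ± 0.13), THBD, an anticoagulant receptor that also restrains complement (1.82 ± 0.17), and CLU, a chaperone that binds terminal complexes (0.74 ± 0.05). MBL2, a recognition lectin, went from 25 to 33 counts a library to 0 to 2 counts, and MASP2, its protease (-1.13 ± 0.31), and SUSD4, a membrane regulator (-0.85 ± 0.09), fell as well. In 786-O-labelled libraries, 7 of 23 rose and 4 fell, beside 11.1% and 7.39% of all genes, with a median of 0.31 beside 0. C4BPB, a chain of the C4b-binding protein, went from 0 to 1 counts to 9 to 23 counts, THBD rose by 1.68 ± 0.08 and ITGAM, a chain of complement receptor 3, by 1.09 ± 0.10. CPN2 went from 1 to 6 counts to 0 to 1 counts and VTN, an inhibitor of the terminal complex, fell by 0.79 ± 0.25. The other components of C1 could not be followed, since C1QA and C1QB had at most 1 count in a line.

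In PD-L1si cells with IFNγ, 5 of 21 rose and 3 fell in A498-labelled libraries (17.6% and 15.9% of all genes), and 8 of 23 rose and 3 fell in 786-O-labelled libraries (11.0% and 7.45%). In A498-labelled libraries, C2 (3.06 ± 0.13), THBD (2.04 ± 0.23) and C1RL, a relative of C1R (0.80 ± 0.05), rose most, while MBL2 went from 21 to 30 counts to 0 to 4 counts, and MASP2 (-0.75 ± 0.30) and the anaphylatoxin receptor C3AR1 (-0.67 ± 0.15) fell. In 786-O-labelled libraries, C4BPB went from 0 to 2 counts to 6 to 10 counts, ITGAM (1.49 ± 0.10) and THBD (1.17 ± 0.08) rose, and C5 fell (-1.10 ± 0.10). Some of these calls come from genes that passed the filter on low counts only through groups in which they were high: C4BPB by its IFNγ groups, MBL2 by its groups without IFNγ, and CPN1, counted among the 3 that fell, by PD-L1si cells with 12 counts in all libraries labelled 786-O together. Without IFNγ, 1 of 21 was higher and 2 lower with PD-L1si in A498-labelled libraries (2.87% and 5.60% of all genes). The counts were the same under IFNγ (4.36% and 5.75%). In 786-O-labelled libraries, 0 of 23 were higher and 1 lower without IFNγ (1.19% and 1.63%). Under IFNγ, 0 were higher and 3 lower there (1.29% and 1.74%). With PD-L1si, THBD was lower in A498-labelled libraries without IFNγ (-1.13 ± 0.26) and under it (-0.91 ± 0.15), and in 786-O-labelled libraries under IFNγ (-0.93 ± 0.07). SUSD4 was the 1 higher gene in A498-labelled libraries in both settings (0.65 ± 0.07 without IFNγ and 1.02 ± 0.09 under it). C3AR1 under IFNγ (-1.34 ± 0.14) and CD46 without it (-0.51 ± 0.05) were lower in A498-labelled libraries, as were C8G (-0.59 ± 0.16) and C5AR1 (-0.68 ± 0.18) under IFNγ and C8G (-0.55 ± 0.18) without it in 786-O-labelled libraries. CD46 and MBL2 were listed at 0 in all libraries labelled 786-O and, like CD55, may not have been measured there. The interaction was called for C3AR1 in A498-labelled libraries (-0.89 ± 0.19), where 1.81% of all genes were called positive and 0.645% negative. It was called for 0 of 23 genes in 786-O-labelled libraries by edgeR, where 4 had an unadjusted p under 0.05. Of all genes there, 0.0377% were called positive and 0.0613% negative.

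As a description, the protein-coding genes with the highest Pearson correlation over the 12 libraries of a line, on log2 (CPM + 1), were WARS1, IL15RA and OAS2 for C3 in A498-labelled libraries, and TNC, VCAM1 and PLPP3 in 786-O-labelled libraries, at 0.9961 to 0.9995. For C1S they were OAS3, SLFN5 and NEURL3 in the former and SOAT1, ADGRF4 and NAMPT in the latter (0.9941 to 0.9995). For SERPING1 they were HLA-DQB1, HLA-DRB5 and GSTK1, and ACSL5, IRF1 and CD74 (0.9992 to 0.9997). The points share the 4 groups, so any gene with a large IFNγ response scores high, and the search covered 11907 and 10853 genes with a mean of at least 1 CPM.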

How the data were processed

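PolyA RNA of the 24 libraries was prepared with a stranded kit and read as paired ends. The authors trimmed the reads with Trimmomatic 0.36.6, aligned them to GRCh38 with HISAT2 2.1.0, and counted them on GENCODE genes with featureCounts 1.6.3 at a mapping quality of at least 12. The deposited table holds these raw counts without normalization, and 39148 of its genes were matched to GENCODE 44 by identifier without version. Some genes have no row in it, among them C1QC, FCN1, FCN2 and CSMD1, and why they are absent was not tested. No option to count reads on several genes or places is listed, which affects C4A, C4B and CFB. A stranded mode is listed, but the counts do not separate strands: over 51 and 59 antisense genes at least 80% inside exons of a gene with at least 50000 counts (A498 and 786-O labels), the antisense gene's counts per overlapping base were a median of 2.07 and 1.98 times the gene's counts per exon base. Of the members, only C4A and C4B share exon bases with a gene on the opposite strand (7.3% and 7.2%), so their counts and those of their antisense genes cannot be told apart there.

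Counts were fitted in R 4.3.3 with edgeR 4.0.16 (TMM, robust quasi-likelihood F-test, legacy fit), with one mean per group over the 12 libraries of a line, for genes with at least 10 counts summed over the 3 libraries of a group. Adjustment was by Benjamini-Hochberg over all genes tested, and a gene was called where the adjusted p was under 0.05 and the log2 fold change beyond 0.5 either way. Positive interactions mean a more positive IFNγ effect in PD-L1si cells. The scripts were tested on simulated data. Groups came from the sample labels. Alternatives were DESeq2 1.42.0, relative log expression, filterByExpr, no filter, protein-coding genes alone, the newer fit, a replicate block, the omission of each library and, added after seeing the data, summed C4A and C4B counts. The genes, lists and motifs were chosen with earlier results of these data known. Members were named in each comparison within a line. From the wider list the text names up to 3 higher and 3 lower genes with the largest changes called per comparison, and counts in place of folds for those with a group of few counts. One gene that met this rule is not reported here. C2 in the libraries labelled 786-O, C1QA and C1QB were named after their values were seen.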

Additional observations from a re-analysis of the deposited data

Results flagged for a closer look

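The differences between lines listed here, labelled 786-O minus labelled A498 on the log2 scale, passed the threshold in the model of all 24 libraries. For IFNγ in Cnsi cells they were -3.44 (C1R), -3.74 (C1S), -3.11 (C4A), -2.75 (C4B), -1.53 (CFB), 0.96 (CFI) and -4.59 (SERPING1). For IFNγ in PD-L1si cells they were -4.06 (C1R), -3.75 (C1S), -2.89 (C4A), -1.76 (C4B), -1.44 (CFB), 0.93 (CFI) and -4.15 (SERPING1). Of these, C4A was -3.66 without the first PD-L1si IFNγ library labelled 786-O and -2.22 without the third PD-L1si library of that label. SERPING1 ran from -4.84 to -3.79 without 1 library each, with -4.84 without the second PD-L1si library labelled A498. Both SERPING1 sizes rest on few counts in the untreated libraries labelled A498, 8 in all in Cnsi and 7 in all in PD-L1si cells. For PD-L1si under IFNγ they were 0.88 (C1S), 0.66 (CFB), -0.59 (CFI) and 0.70 (SERPING1). For PD-L1si without IFNγ they were 1.17 (C3), 0.99 (C1R), 0.89 (C1S), -1.32 (C4B) and -0.56 (CFI). For the interaction of siRNA and IFNγ they were -0.70 (C3) and -0.62 (C1R). Line and sequencing instrument cannot be told apart in any of these.

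Within the libraries labelled A498, the IFNγ effect differed between PD-L1si and Cnsi cells for C1R (0.74), C4A (-1.15) and C4B (-1.05). The C4B call was lost without the second Cnsi library (-0.91, adjusted p = 0.0708 by edgeR). With 3 libraries a group, the gap of a library to its group was not tested, and the omission of each library took its place.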

How the results depend on the processing

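The 15 counts of members called stayed within 1.5 times under DESeq2, relative log expression, filterByExpr, no filter, protein-coding genes alone, the newer fit, the block and the omission of each library. DESeq2 also called C4A in 786-O-labelled libraries for IFNγ in Cnsi cells (1.86) and for PD-L1si without IFNγ (1.92); with C4A and C4B summed, the IFNγ effects there were called (2.17 and 2.03). Without the second Cnsi IFNγ library of that line, the difference between lines of C3 for PD-L1si under IFNγ was called (0.53). The calls lost without 1 library stand beside their results. Signs changed only in effects that were not called. For SERPING1, PD-L1si without IFNγ was 0.0085 with protein-coding genes alone and ran from -0.0467 to 0.0342 (786-O) and from -0.92 to 0.13 (A498) without 1 library each, its interaction from -0.76 to 0.29 (A498), and its difference between lines without IFNγ from -0.12 to 0.93. For CFB, the same omissions gave -0.35 to 0.15 without IFNγ and -0.0209 to 0.14 under it (786-O), and interactions of -0.00045 to 0.21 (A498) and -0.0774 to 0.42 (786-O). The differences between lines of C4A for PD-L1si ran from -0.34 to 0.72 under IFNγ and from -0.45 to 0.69 without it. The cause of these changes was not tested. Without 1 library each, the uncalled effects of C4A labelled 786-O ran from 0.20 to 1.27 for PD-L1si under IFNγ, from 1.25 to 2.40 without it, and from -1.71 to -0.28 for the interaction. Counts of under 5 a library limit SERPING1 in untreated A498-labelled cells.

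The replicate numbers of the labels were not shown to pair the libraries: deviations from the group means correlated at a mean of 0.0499 (A498) and 0.028 (786-O) between libraries of the same number, with 3 and 5 of 18 pairs over 0.1, and 7 and 4 of 12 libraries correlated best with their own number. In the fit with a replicate block, 9 and 6 members were called for IFNγ in Cnsi cells of the A498 and 786-O labels, as without it, and no other call changed.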
